A study of Homo sapiens with 131 samples.

Results

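The HOX genes analysed here were the protein-coding members of the HOXA, HOXB, HOXC and HOXD clusters. They were chosen by symbol, a rule that uses no measured value, and comprised 39 of the 60708 genes of the RNA table, with 11 genes in HOXA, 10 in HOXB, 9 in HOXC and 9 in HOXD. All 39 also had a DNA copy state. The cells were HAP1, a near-haploid human line that descends from a chronic myeloid leukaemia line. They were untreated, were sorted singly from mid-S-phase and came from 1 biological experiment, so the spread between cells says nothing of other cultures. With scRR-seq, the DNA and the RNA of each cell had been sequenced as separate libraries, and libraries with the same cell number were joined. By their labels, 63 cells were from mid-S-phase and 5 further DNA libraries were from G1. RNA and DNA tables of 56 of the mid-S cells were used, and the others and G1 were not analysed here.

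HOX genes encode homeodomain transcription factors that give cells their position along the body axis. Within a cluster, genes of low paralogue number lie at the 3′ side and are typically used early and in anterior tissue, and genes of high number lie at the 5′ side and are used late and in posterior tissue. Genes of the same number in different clusters are paralogues. Polycomb complexes keep unused HOX genes silent, trithorax complexes that contain KMT2A (MLL) keep used ones active, and TALE proteins such as PBX and MEIS bind DNA together with HOX proteins. In blood, HOXA9 and MEIS1 are best known for their part in stem cells and leukaemia.

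RNA levels are TPM, transcript abundance scaled by exon length and by the total of the cell, so that they can be compared between genes. The replication score of a cell is the percent of its called 40-kb genomic bins in the 2-copy state, that is, replicated. Scores had a median of 54.1% and ran from 39.7% to 67.2%, and 12045 to 15028 genes per cell reached a TPM of 1. Cells numbered 65 or lower (29, the first library set) and those with higher numbers (27, the second) stood apart. Mitochondrial RNA made up 4.98% to 18.3% of TPM in the first set and 2.57% to 5.55% in the second, and the mean score was 50.7% in the first set and 56.4% in the second. The labels name no batch. Medians by set are given where those of a named gene differed by over 1.5 times. Of the markers of the parent lineage, the fusion partners BCR and ABL1 had medians of 13.1 and 6.25 TPM. The myeloid factor SPI1 and the globin gene HBB were at 0 in all cells. The leukocyte gene PTPRC was above 0 in 1 cell. TAL1 and KIT, which act in blood progenitors, had medians of 22.0 and 4.25 TPM. The TAL1 median was 26.3 TPM in the first set and 14.3 TPM in the second. The other blood genes examined, CD34, LYL1, CD33, GATA1 and HBG1, were above 0 in 27, 10, 7, 1 and 1 cells. The CD34 median was 0.13 TPM in the first set and 0 in the second. Of 7 fibroblast genes, PDGFRA, COL1A1 and THY1 had medians of 8.09, 0.74 and 0.145 TPM, and the others had medians of 0. In the first and second set, medians were 10.8 and 4.67 TPM for PDGFRA and 0 and 1.63 TPM for COL1A1. For THY1 they were 0.34 and 0 TPM.

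HAP1 cells contained RNA of a broad but selective set of HOX genes. 19 of the 39 members had TPM above 0 in over 50% of cells, the limit for an expressed gene used here, as did 22.3% of all genes in the table. The HOXA cluster was the most fully used, with 8 of 11 members, followed by HOXC with 5 of 9, HOXB with 4 of 10 and HOXD with 2 of 9. A further 17 members were above 0 in 1 to 20 cells. HOXB1, HOXC12 and HOXD11 were at 0 in every cell, and 0 of 56 cells allows a share of detecting cells of up to 5.36%, for counting error only. Per cell, 9 to 27 HOX genes were above 0 (median 16.5). Over 56 cells, this number had a Spearman correlation of 0.55 with the number of genes at a TPM of 1. Its correlation with the replication score was 0.43. Both gene numbers of a cell come from the same RNA library and share its depth. The number of HOX genes above 0 averaged 15.7 in the first library set and 18.3 in the second, which had the higher mean score. The part of the library sets in these correlations was not tested.

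**Figure D1:**
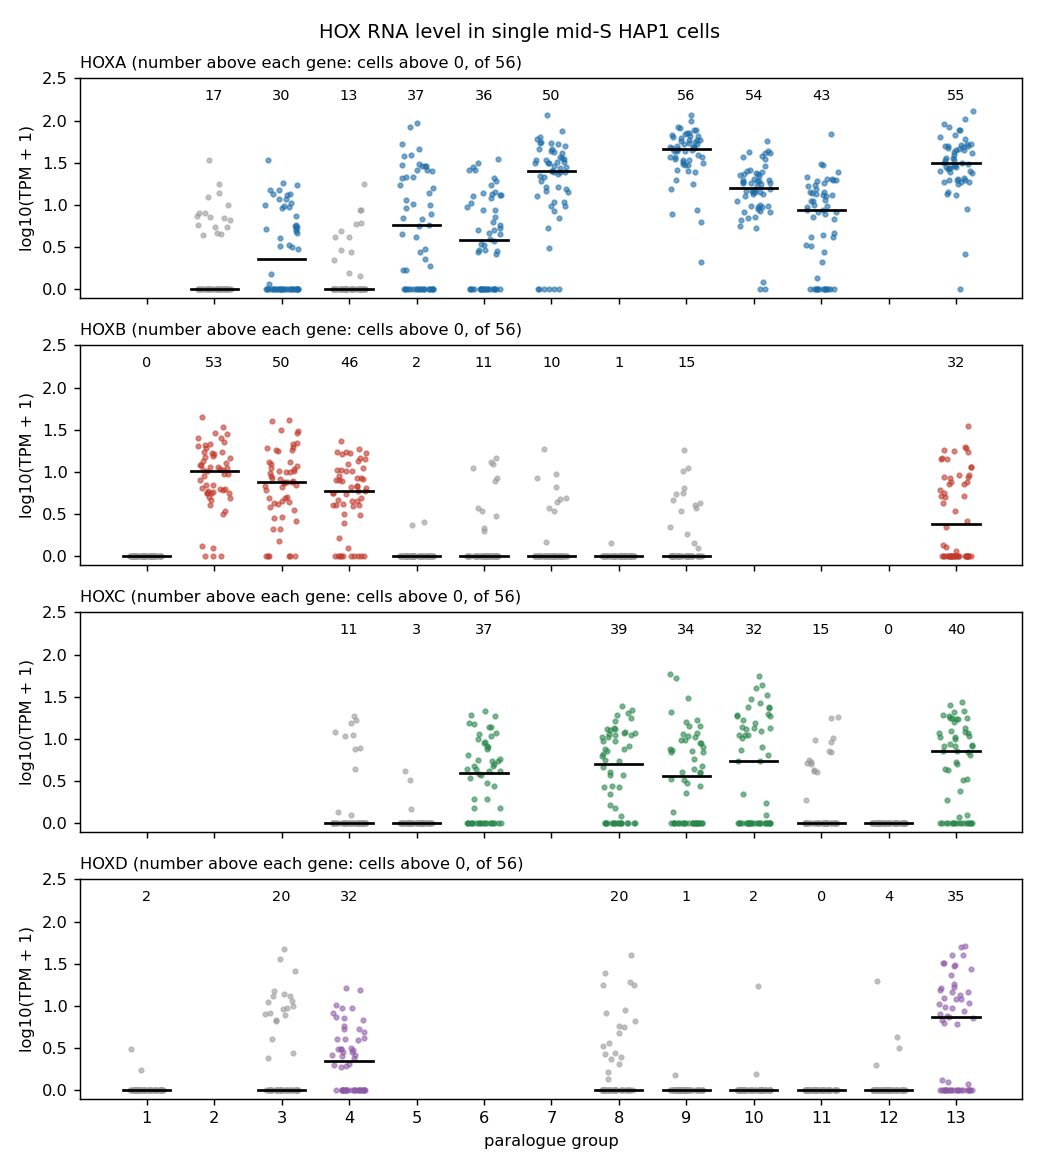
RNA level of 38 of the 39 HOX genes in 56 mid-S HAP1 cells. Each point is a cell, the vertical axis is log10(TPM + 1), the horizontal axis is the paralogue group, and bars are medians. Coloured genes were above 0 in over 50% of cells and grey ones were not. HOXA7, HOXA9, HOXA10 and HOXA13 form the highest block, and HOXB has a block at groups 2 to 4. Of groups 4, 9 and 13, which alone have a gene in all 4 clusters, only group 13 has all 4 coloured.

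The paralogue groups were not used evenly. Group 13, which patterns the most posterior structures, had all 4 members above the limit. Groups 2 to 11 had 1 or 2 members above it each. Only groups 4, 9 and 13 have a gene in all 4 clusters, and groups 4 and 9 had 2 members above the limit each. In all, 5 of 12 members of groups 1 to 4, 5 of 11 of groups 5 to 8 and 9 of 16 of groups 9 to 13 were expressed. The clusters contributed different parts of this code. HOXB supplied groups 2, 3, 4 and 13, and none of its members of groups 5 to 9 was expressed. HOXA supplied groups 5, 6, 7, 9, 10, 11 and 13 and also group 3. HOXC supplied groups 6, 8, 9, 10 and 13, and HOXD supplied groups 4 and 13.

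HOXA9 had the highest level of the members. It ran from 1.13 to 116.5 TPM with a median of 45.4 TPM (mean 46.2 ± 23.1, SD, n = 56 cells) and was the only member above 0 in all 56 cells. Its median was higher than that of 74.6% of the 13542 genes that passed the same limit, whose median was 19.3 TPM. HOXA13, a regulator of limb and urogenital ends, ran from 0 to 128.9 TPM with a median of 30.7 and was above 0 in 55 cells. HOXA7 had a median of 24.5 TPM (0 to 114.7, 50 cells above 0). HOXA10, which like HOXA9 is active in blood progenitors, had a median of 15.1 TPM (0 to 56.3, 54 cells above 0). These 4 genes, all of group 7 or above, gave 49.4% ± 12.7 (SD over cells) of all HOX TPM, and 49 of 56 cells contained RNA of all 4.

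The other HOXA genes were detected in fewer cells. HOXA11 had a median of 7.75 TPM (0 to 68.5, 43 cells), HOXA5 of 4.71 TPM (0 to 93.2, 37 cells), HOXA6 of 2.86 TPM (0 to 34.4, 36 cells) and HOXA3 of 1.28 TPM (0 to 32.8, 30 cells). HOXA5 varied more than most genes of its level. Its coefficient of variation, 1.47, lay further above the running median of genes of similar mean than that of 91.7% of expressed genes. HOXA9 (0.50) and HOXA10 (0.68) varied less than most, above 13.02% and 7.65% of expressed genes. HOXA2 and HOXA4 had medians of 0 and were above 0 in 17 and 13 cells.

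In HOXB, RNA came mainly from 3 adjacent anterior genes. HOXB2, which acts in hindbrain patterning, had a median of 9.37 TPM (0 to 43.2, 53 cells above 0). HOXB3 had a median of 6.69 TPM (0 to 40.1, 50 cells) and HOXB4, known for expanding blood stem cells, of 4.92 TPM (0 to 22.2, 46 cells). HOXB2 and HOXB4 varied little between cells for their level, above 6.80% and 3.25% of expressed genes. The neighbouring HOXB5 and HOXB8 were above 0 in 2 and 1 cells, and HOXB6, HOXB7 and HOXB9 in 11, 10 and 15. HOXB13, which lies apart from the other HOXB genes, was above 0 in 32 cells with a median of 1.44 TPM (0 to 33.6).

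HOXC genes were on at low levels from group 6 upward, with gaps. Medians of the expressed ones were higher than those of 16.1% (HOXC9) to 25.6% (HOXC13) of the 13542 genes past the limit. HOXC13, a hair and nail regulator, had a median of 6.12 TPM (0 to 26.2, 40 cells above 0), HOXC8 of 4.10 TPM (0 to 23.7, 39 cells) and HOXC6 of 3.01 TPM (0 to 20.5, 37 cells). HOXC10 had a median of 4.54 TPM (0 to 55.2) and was above 0 in 32 cells, and HOXC9 had a median of 2.65 TPM (0 to 57.2) and was above 0 in 34. HOXC11, between the expressed HOXC10 and HOXC13, was above 0 in 15 cells, and HOXC4 and HOXC5 were above 0 in 11 and 3.

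HOXD was used least. HOXD13, the gene at its 5′ end, had a median of 6.33 TPM (0 to 50.4, 35 cells above 0) and HOXD4 a median of 1.22 TPM (0 to 15.3, 32 cells). HOXD3 and HOXD8 were above 0 in 20 cells each, HOXD12 in 4, HOXD1 and HOXD10 in 2 each and HOXD9 in 1. Thus HOXD13 was separated from HOXD4 by genes above 0 in 0 to 20 cells. All 4 group 13 genes were above 0 together in 16 cells, 3 of them in 23 cells, 2 in 12 and 1 in 5.

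The amount of RNA per cluster was compared within cells by summing TPM over the HOX genes of a cluster. HOXA summed to 169 ± 57.5 TPM (SD, n = 56 cells) and HOXC to 37.0 ± 21.5 TPM, and HOXA was higher in 56 of 56 cells. The mean difference was 132 ± 8.71 TPM (SE), with adjusted p = 3e-05 in a two-sided sign-flip permutation test, the smallest these resamples can give after adjustment over 3 pairs. HOXC did not differ detectably from HOXB, which summed to 35.2 ± 18.7 TPM. The difference was 1.80 ± 3.80 TPM (SE), with adjusted p = 0.638, and HOXC was higher in 28 of 56 cells. HOXB exceeded HOXD, at 20.7 ± 19.5 TPM, by 14.5 ± 3.51 TPM (SE), with adjusted p = 0.000225 in the same permutation test, and was higher in 41 cells. Within the first library set this difference was 19.1 TPM (adjusted p = 0.000705), and within the second it was 9.57 TPM and not past the threshold (adjusted p = 0.0978). The sets themselves were not tested against each other. HOXA supplied 64.5% ± 11.4 of HOX TPM (40.3% to 91.1%), HOXC 14.7% ± 8.33, HOXB 13.2% ± 6.35 and HOXD 7.65% ± 6.57. HOXD summed to 0 in 6 cells.

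**Figure D2:**
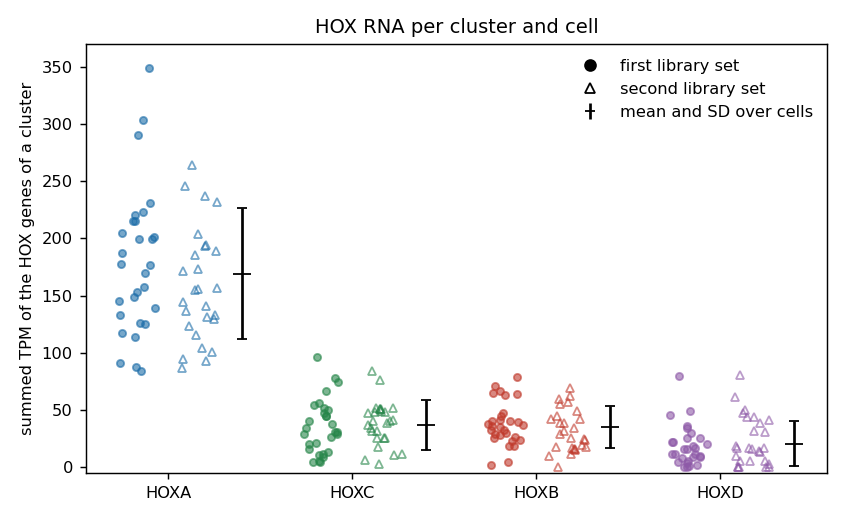
Summed TPM of the HOX genes of each cluster in each cell. Filled circles are the 29 cells of the first library set, open triangles the 27 cells of the second, and black bars are the mean and SD over all 56 cells. The HOXA sums, from 84.5 to 349 TPM, were the highest of the 4 clusters in every cell, although 6 of them were below the highest HOXC sum, 96.6 TPM. The HOXC and HOXB sums overlap over nearly their whole range.

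The promoter sequences of members with high and with no RNA are shown to compare their CpG content. RefSeq promoters (GRCh38.p14, 250 bases before to 50 after the start) matched 20 of the 39 members by symbol. In them a median of 22.5 CpG was found (4 to 44), against 14 in all 27305 promoters of this length, and the observed over expected CpG ratio was 0.87 against 0.58. The median was 22 CpG in 9 expressed members and 23 CpG in 11 unexpressed ones. Among the unexpressed, HOXC4 and HOXC5 had equal GC (51.7%) and CpG (15) values, so the 11 may not be separate sequences. The motif TATAAA, searched on both strands, occurred in the promoters of HOXA3, HOXA9, HOXA10 and HOXD13, which is 4 of 9 expressed and 0 of 11 unexpressed members, and in 11.95% of all promoters. TGATTNAT, a HOX and PBX type of motif, occurred in those of HOXA2 and HOXD11, which is 0 of 9 expressed and 2 of 11 unexpressed members, and in 2.94% of all promoters. The 150 bases before the start of the 2 members with the highest mean and of 2 of the 3 members at 0 follow, with each CpG in capitals. The windows, on hg38, are chr7:27165538-27165687 and chr7:27200092-27200241, both on the minus strand, chr17:48531012-48531161 on the minus strand and chr2:176107130-176107279 on the plus strand. They hold 15, 21, 4 and 10 CpG. Over the whole promoter the numbers were 22 for HOXA9, 44 for HOXA13, 11 for HOXB1 and 27 for HOXD11, so CpG number did not order these 4 members by RNA.
HOXA9: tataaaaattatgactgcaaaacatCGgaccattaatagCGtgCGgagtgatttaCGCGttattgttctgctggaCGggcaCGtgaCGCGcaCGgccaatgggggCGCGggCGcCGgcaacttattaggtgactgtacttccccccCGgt
HOXA13: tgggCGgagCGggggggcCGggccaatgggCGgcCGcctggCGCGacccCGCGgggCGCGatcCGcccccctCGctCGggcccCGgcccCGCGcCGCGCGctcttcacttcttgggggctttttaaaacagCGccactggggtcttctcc
HOXB1: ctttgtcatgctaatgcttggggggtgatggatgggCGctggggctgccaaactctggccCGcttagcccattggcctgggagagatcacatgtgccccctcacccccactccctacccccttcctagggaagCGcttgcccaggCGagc
HOXD11: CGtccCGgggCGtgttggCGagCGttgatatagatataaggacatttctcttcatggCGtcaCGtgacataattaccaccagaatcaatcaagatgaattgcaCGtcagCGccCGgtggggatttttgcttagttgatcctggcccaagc

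The library sets differed for part of the expressed members. Of the 19, 16 were above 0 in a larger share of cells of the second set, 2 in a smaller share (HOXA10 and HOXD4) and HOXA9 in the same share, and a median of 13029 genes per cell reached a TPM of 1 in the first set and 13711 in the second. Medians were higher in the second set for 9 members and lower for 10. HOXC10 had a median of 0.27 TPM in the first set and 10.1 TPM in the second, HOXD13 of 0.26 and 6.59 TPM, and HOXC9 of 0 and 3.73 TPM. HOXC13 had a median of 3.42 TPM in the first set and 7.37 TPM in the second, HOXC8 of 2.70 and 4.54 TPM, and HOXA3 of 0 and 2.39 TPM. In the other direction, HOXB13 had 2.47 TPM in the first set and 0.36 TPM in the second, and HOXD4 had 1.85 and 0.97 TPM. Taken separately, the first set had 17 members above 0 in over 50% of cells and the second had 20, with 17 in common. HOXA3, HOXC9 and HOXD8 passed in the second set alone. HOXD8 had a median of 0 in the first set and 0.36 TPM in the second. The same counts by set were not made over all genes, so they cannot be read as particular to HOX genes. The part of the library sets in these differences was not tested.

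**Figure D3:**
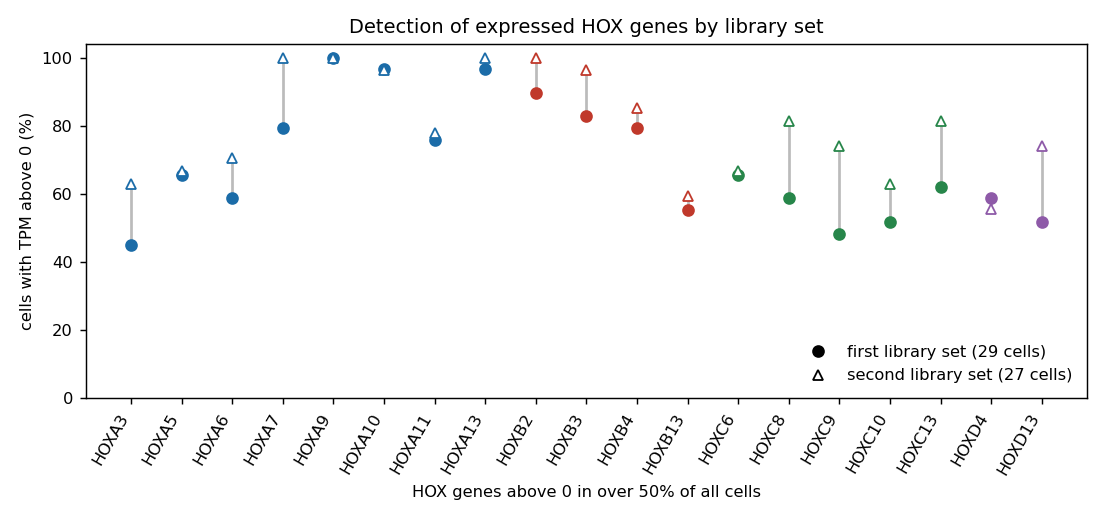
Share of cells with TPM above 0 for the 19 expressed HOX genes, with filled circles for the first library set (29 cells) and open triangles for the second (27 cells). HOXA9 is at 100% in both, and the widest gaps are seen for HOXC9, HOXC8, HOXD13 and HOXA7.

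Members of a cluster did not vary together strongly between cells. The 45 pairs of expressed members within a cluster had a median Spearman correlation of 0.06 over 56 cells, the 126 pairs from different clusters 0.04, and 8820 pairs of neighbouring expressed genes of the whole genome 0.04. The 6 HOXB pairs had a median of 0.20 and the 28 HOXA pairs of 0.04. HOXB4 lies inside the span of HOXB3, and this pair had 0.32. The other HOXB pairs, which do not overlap, ran from 0.15 to 0.28. The highest value was that of HOXA7 and HOXA9, at 0.41 (0.40 in the first library set and 0.51 in the second). The lowest was that of HOXA13 and HOXC9, at -0.29. These are descriptions of sparse values, and the genes of a cell share its library.

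Other RNAs from the clusters were examined next to the members. Of 25 antisense, intergenic and microRNA genes of the clusters, 4 were above 0 in over 50% of cells. HOTAIRM1, from the 3′ side of HOXA, had a median of 20.8 TPM (0 to 119.9, 46 cells above 0). HOXA11-AS had a median of 8.05 TPM (48 cells), HOTTIP, at the 5′ end of HOXA and known to recruit WDR5 and MLL, of 5.32 TPM (39 cells), and HOXB-AS1 of 4.20 TPM (36 cells). The HOTTIP median was 8.59 TPM in the first library set and 2.93 TPM in the second, and that of HOXB-AS1 was 11.7 and 2.63 TPM. HOTAIR, from HOXC, was above 0 in 8 cells with up to 22.1 TPM. The entries of the miR-10, miR-196 and miR-615 microRNA genes were at 0 in all cells. The strand setting of the counting was not stated, so that RNA of a HOX gene and of its antisense partner may not be separable.

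Unspliced RNA, the gene-body reads left after exon reads are subtracted, was scarce for most members. Its deposited values carry a TPM label but were treated as read counts, which rise with gene length. 5 members had values above 0 in over 50% of cells and 14 had 0 in all cells. HOXD3 had the highest median, 129.5 counts (0 to 374, 54 cells above 0), although its spliced RNA was above 0 in 20 cells. HOXA9 had 32.2 counts (8.38 to 113.5, 56 cells), HOXA3 23.98 counts (0 to 170.8, 48 cells), HOXC6 18.9 counts (0 to 102.8, 47 cells) and HOXC4 8.5 counts (0 to 179.7, 43 cells). The HOXD3 median was 166.5 counts in the first library set and 69.5 in the second, and the HOXC4 median was 5.5 and 10.3. Unspliced totals averaged 837179 counts per cell in the first set and 573830 in the second. All 5 span other annotated genes, HOX genes among them. HOXA9 also shares its locus with the HOXA10-HOXA9 readthrough entry, which had a median of 42.9 unspliced counts but spliced RNA in 1 cell. 22 of the 39 members overlap another HOX gene, so the gene to which unspliced reads of these loci belong is uncertain.

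Most cofactors and chromatin regulators of HOX genes were expressed. Of 9 TALE genes, 7 were above 0 in over 50% of cells. PBX3 had a median of 91.1 TPM, MEIS2 of 31.995 TPM and MEIS1 of 23.4 TPM, while PBX4 and PKNOX2 had medians of 0. The PKNOX2 median was 0 in the first library set and 0.49 TPM in the second. All 17 Polycomb subunits were expressed, from the methyltransferase EZH2 (median 103.045 TPM) and BMI1 (92.4 TPM) to CBX7 (0.34 TPM). All 11 genes of the trithorax side were expressed, with medians of 143.7 TPM for PSIP1, which tethers MLL complexes, 102.8 TPM for ASH2L and 78.9 TPM for KMT2A. Of 7 upstream regulators, 4 were expressed. CDX2, a caudal factor that activates HOX genes in embryos, was above 0 in 29 cells with a median of 0.26 TPM (0 in the first library set and 0.60 TPM in the second), and CDX1 and CDX4 were at 0 in all cells.

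Replication timing was then read from the DNA of the 55 cells scored 40 to 70%. Every HOX gene had been replicated in most cells. All 39 members were 2-copy in over 80% of the cells with a call (87.3% to 100%), as were 51.2% of all genes with a state. By cluster, HOXC genes were 2-copy in 98.1% to 100% of called cells, HOXA genes in 94.3% to 98.2%, HOXB genes in 89.1% to 94.5% and HOXD genes in 87.3% to 89.1%. 5 members, HOXC4, HOXC5, HOXC6, HOXC8 and HOXC9, were 2-copy in every called cell. Members of a cluster share 40-kb bins and are therefore not independent of each other.

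The state of a whole cluster in a cell was taken as the majority of the bins that overlap its HOX genes (hg38; HOXA on chr7, HOXB, chr17:48528526-48728750, HOXC, chr12:53938831-54056030, and HOXD, chr2:176092721-176190907). HOXC was 2-copy in 54 cells and 1-copy in none, with no majority in 1, and 0 of 54 cells allows a 1-copy share of up to 5.56%. HOXA was 2-copy in 52 cells and 1-copy in 1, or 98.1% of cells with a majority (exact 95% interval 89.9% to 99.95%). HOXB was 2-copy in 49 cells and 1-copy in 4, or 92.5% (81.8% to 97.9%). HOXD was 2-copy in 49 cells and 1-copy in 6, or 89.1% (77.8% to 95.9%). The largest difference, HOXC against HOXD, was 11.1 percentage points in 54 cells. 6 cells had HOXC at 2 copies and HOXD at 1, and 0 the reverse, which gave p = 0.0312 in the exact McNemar test and adjusted p = 0.188 over 6 pairs. For the other 5 pairs adjusted p ran from 0.5 to 1, so the order of the clusters was not resolved beyond the spread between cells. Of the 6 cells with HOXC at 2 copies and HOXD at 1, 5 were in the first library set. The difference between HOXC and HOXD was 18.5 percentage points in that set and 3.70 in the second. The sets were not tested against each other.

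**Figure D4:**
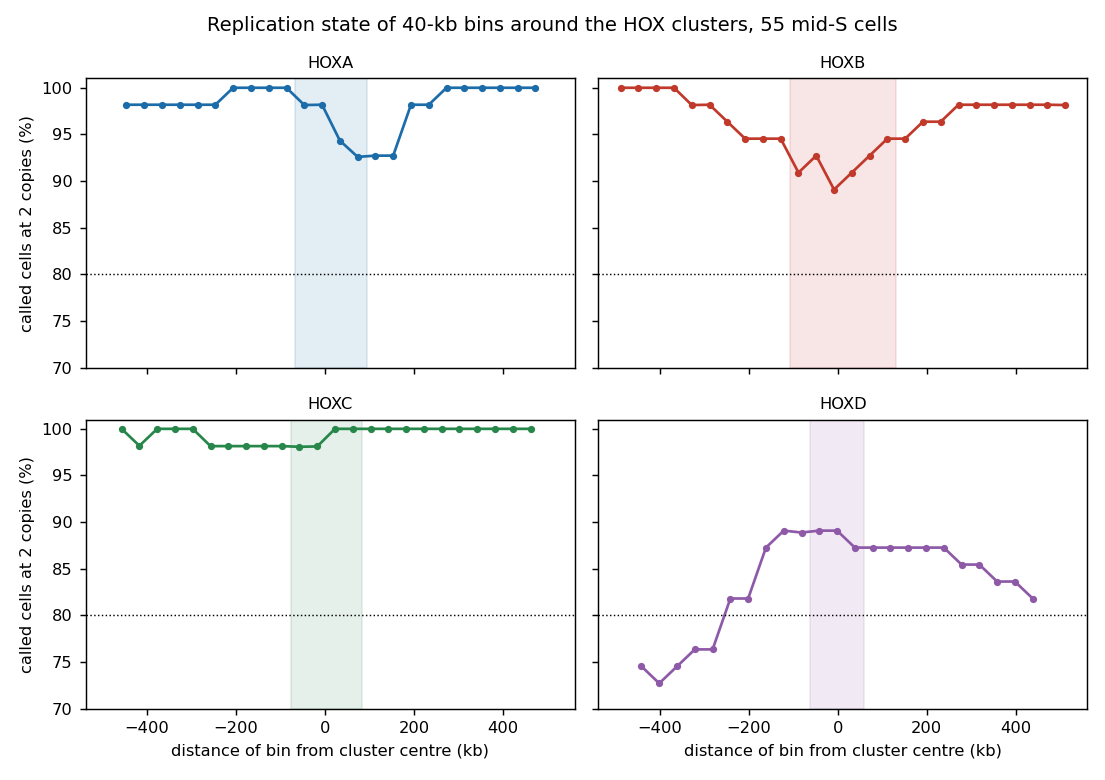
Percent of called cells in which a 40-kb bin was at 2 copies, against the distance of the bin from the cluster centre in kb (55 cells, vertical axis from 70%). Shading marks bins that overlap the HOX genes and the dotted line is 80%. HOXB dips to 89.1% between flanks of 94.5% to 100%, HOXA falls to 92.6% on one side, HOXC stays at or above 98.1% and HOXD lies at 87.3% to 89.1% on a plateau with lower flanks.

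The bins around the clusters showed different profiles. The median bin of HOXC was 2-copy more often than 91.3% of all 56881 bins, that of HOXA more often than 81.7%, that of HOXB more often than 75.8% and that of HOXD more often than 72.02%. Of all bins, 35% were 2-copy in over 80% of called cells. HOXB formed a shallow dip, with 89.1% at its lowest bin and flanks of 94.5% to 100% within 400 kb. In HOXA the share was 98.1% in the bin with HOXA2, fell to 94.3% in the bin with most of HOXA9 to HOXA13 and to 92.6% in the bin that begins at the end of HOXA13, with 92.7% in the next 2 bins before a return to 98.2%. HOXD lay on a plateau of 87.3% to 89.1%, with flanks as low as 72.7%. In these 55 cells, a difference of 1 cell is about 1.82 percentage points, and the dips in HOXA and HOXB rest on few cells.

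The cells with an unreplicated cluster were mostly those early in the sampled window. 10 of 55 cells had a cluster at 1 copy, at scores of 40.1% to 66.3%, and 8 of them were below the median score of 54.6%. The 6 cells with HOXD at 1 copy had scores of 42.0% to 51.4%. HOXB was at 1 copy at scores of 40.1%, 42.3%, 43.4% and 65.2%, and HOXA in a cell with a score of 66.3%. In the cell with a score of 42.3%, both HOXB and HOXD were at 1 copy, and in the other 9 cells a single cluster was. All 4 clusters were at 2 copies in 42 cells. 6 of the 10 cells were in the first library set, which had 28 of the 55 cells.

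**Figure D5:**
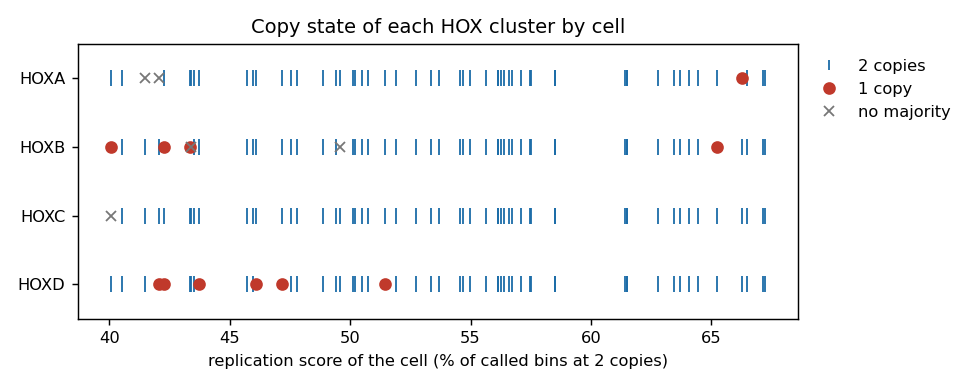
Copy state of each HOX cluster in the 55 cells, ordered along the horizontal axis by replication score (percent of called bins at 2 copies). Blue ticks are 2 copies, red circles 1 copy and grey crosses no majority of bins. The HOXD circles lie between 42.0% and 51.4%, and the circles of HOXB and HOXA above 65% are isolated.

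Whether RNA levels differed between replicated and unreplicated copies could be asked of few members. The study's filter, under which neither state may exceed 80% of called cells, left 0 of the 39 members for a comparison of 2-copy with 1-copy cells. Over the genes that passed, the two-sided Wilcoxon rank-sum test called 0 of 2455 genes for spliced RNA (0%; 210 at an unadjusted p under 0.05) and 0 of 3159 for unspliced RNA (0%; 212). With a limit of at least 5 cells in each state instead, added after the data had been seen, 3 members could be tested in spliced and 1 in unspliced RNA, among 4239 and 5124 genes of which 0 were called (336 and 328 at an unadjusted p under 0.05). The state with few cells made an exact permutation test of the ranks necessary for the members.

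HOXD13 had 0 to 50.4 TPM (median 6.27) in 49 2-copy cells, and 0, 0, 0, 9.82, 11.3 and 13.8 TPM in the 6 1-copy cells. The ranges overlapped fully, with adjusted p = 0.953 in the exact permutation test. HOXD4 had 0 to 14.6 TPM (median 1.05) in 49 2-copy cells, and 0, 0, 0, 4.32, 8.38 and 15.3 TPM in 6 1-copy cells, with adjusted p = 0.952. RNA of both genes was thus found in cells in which their cluster had not been replicated. HOXB2 had 0 to 43.2 TPM (median 9.37) in 50 2-copy cells, and 0, 4.73, 14.5, 19.3 and 27.7 TPM in 5 1-copy cells, with adjusted p = 0.953. Unspliced HOXD3 had 0 to 374 counts (median 129.5) in 48 2-copy cells, and 0 to 319 counts (median 91.05) in 6 1-copy cells, with adjusted p = 1. With 5 or 6 cells at 1 copy, small differences were not detectable.

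HOX RNA was also compared with the progress of the cells through the sampled part of S-phase. With log10(TPM + 1) fitted as a smooth function of the replication score (mgcv), the test called 0 of 24 members tested (3 at an unadjusted p under 0.05), beside 7 of 17132 genes (0.0409%). Adjusted p of the members ran from 0.358 to 0.903. The lowest value was that of HOXA2, whose fitted log10(TPM + 1) was 0.51 higher at the highest than at the lowest score (unadjusted p = 0.0126 in mgcv, adjusted p = 0.358), with RNA above 0 in 17 cells. HOXB3 had a fitted difference of 0.44 (adjusted p = 0.432). HOXC8 had a curved fit with no net difference (adjusted p = 0.453). The fitted difference was positive for 15 members and negative for 9. For unspliced counts, edgeR's quasi-likelihood test called 0 of 7 members (0 at an unadjusted p under 0.05), beside 7 of 7206 genes (0.0971%), and DESeq2 also called 0 of 7. Among the genes of the cofactor, Polycomb, trithorax and upstream lists and the other cluster RNAs, 0 were called in either kind of RNA. The cluster sums had Spearman correlations with the score of 0.00 for HOXA, 0.04 for HOXB, 0.30 for HOXC and 0.10 for HOXD over 56 cells.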

How the data were processed

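DNA and RNA libraries of 56 mid-S HAP1 cells were used. The authors mapped DNA reads to hg38 with BWA (0.7.17-r1188, as the submitters' notes on processing name it) and called 40-kb bins 1-copy or 2-copy with AneuFinder. The deposited states are codes for 2-copy, 1-copy or no call. The deposited TPM values were made by the authors from exon counts (ramdaq, Hisat2 and featureCounts, GENCODE). The deposited unspliced values were treated as estimated counts. The paper describes unspliced counts as gene-body less exon reads, with negative results set to 0. Only 21.3% of the deposited unspliced values above 0 were whole numbers, so how they were scaled is uncertain. Their totals ran from 425181 to 1353931 per cell. The authors reduced the RNA libraries to a common number of reads. Low TPM values followed exon length (slope -0.70 on log10 scales, 3269 genes) and not gene span (0.05), so TPM was read as per exon length. RNA came from the supernatant of the lysate, so nuclear RNA may be under-represented.

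Cells scored 40 to 70% (55) entered the DNA comparisons. Cluster sums were compared by sign-flip permutation (100000 resamples) and cluster states by the exact McNemar test. Copy-state tests required values above 0 in over 50% of cells and a call in at least 50%. Progression used mgcv 1.9.3 on genes with a TPM of 1 in at least 20% of cells, and edgeR 4.0.16 with TMM and filterByExpr on unspliced counts rounded to whole numbers, with DESeq2 1.42.0 as an alternative, run under R 4.3.3. Python 3.11.15 with SciPy 1.17.1 was used otherwise. p-values were adjusted by Benjamini-Hochberg over all genes tested, or over the cluster pairs, with a threshold of 0.05, and tests were checked on simulated data. All 39 members are accounted for in the counts and sums, and the single values of some genes are not reported here. Those above 0 in over 50% of cells, or tested or called, are given with values, and other genes come from fixed lists. The members follow a rule on symbols, and this gene family and the other lists were chosen with earlier results of these data known.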

Additional observations from a re-analysis of the deposited data

How the results depend on the processing

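Under the alternative settings, 71 repeated values kept the side of the threshold without a reversed direction, or gave a count within 1.5 times. Some of these were differences in 2-copy share that became 0. HOXA minus HOXB was 5.88 percentage points in the main setting and 0 in cells scored 45 to 65%. A further 22 were at 0 because no member could be tested for copy state, and say nothing of stability. 18 members had a TPM of at least 1 in over 50% of cells and 25 had TPM above 0 in over 20%, against 19. Of all 60708 genes, 12302 and 18932 passed these limits, against 13542 in the main setting. In the second library set alone, 1 cluster pair differed in summed TPM instead of 2, since HOXB minus HOXD was 9.57 TPM. In the first set alone, HOXC minus HOXB was -2.07 TPM, neither it nor the value over all cells being past the threshold. In the second set alone, the 2-copy share of HOXB minus HOXD was -3.70 percentage points, likewise not past the threshold in any setting. The count of all genes called along the score moved from 7 to 26 for spliced RNA with genes above 0 in at least 3 cells, and to 2 with the library set as a term. For unspliced RNA it moved from 7 to 1277 and to 2 under the same changes, and to 54 with DESeq2. The cause was not tested. 0 members were called in any of these settings (adjusted p from 0.358 to 0.971 for spliced and from 0.17 to 1.00 for unspliced RNA). With at least 5 cells in each state, 3 members in spliced and 1 in unspliced RNA could be tested for copy state. No paired analysis was possible because the 2-copy and 1-copy cells of a gene are different cells, and the cell number only joins the DNA and the RNA of a cell. With 56 cells, values of 0 for a member can be RNA that was missed, and 5 to 7 cells at 1 copy limit what the copy-state test can show.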

Other observations

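Of 12 genes at the borders of the clusters, 7 were above 0 in over 50% of cells. At HOXC, CBX5, which encodes the heterochromatin protein HP1 alpha, had a median of 128 TPM (62.3 to 266.3) and was above 0 in 56 of 56 cells, and SMUG1 had a median of 19.9 TPM (44 cells). At HOXD, MTX2 and LNPK had medians of 60.4 and 45.5 TPM and were above 0 in 54 cells each (MTX2 47.1 TPM in the first library set and 71.99 TPM in the second), while EVX2, the homeobox gene beside HOXD13, was at 0 in all cells. At HOXB, CALCOCO2 had a median of 56.7 TPM (56 cells above 0), and PRAC1 and PRAC2, which lie near HOXB13, were above 0 in 1 cell each. SKAP1, on the HOXB1 side, was above 0 in 3 cells, and HOXB1 was at 0 in all. At HOXA, HIBADH and SKAP2 had medians of 36.5 and 17.2 TPM (SKAP2 11.0 TPM in the first set and 31.5 TPM in the second), and EVX1, the homeobox gene beside HOXA13, was above 0 in 8 cells, while HOXA13 had a median of 30.7 TPM.

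POU5F1, a factor of pluripotent cells, had a median of 1044 TPM (318 to 2667) in these cells, with 1359 TPM in the first library set and 696 TPM in the second, while NANOG and LIN28A had medians of 0. The locus has near-identical copies elsewhere in the genome. The source of these reads was not tested, so the value is uncertain.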
